A study of Sorghum bicolor with 12 samples.

Results

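Ribosome profiling of sorghum shoots left a small set of mRNAs that were clearly present in the RNA libraries and almost absent from the ribosome footprints. The set was defined by 3 bounds: a coding sequence of more than 240 bases, a mean RNA level of at least 5 CPM (read count scaled to a common library total) over the 6 RNA libraries, and at most 10 footprints summed over the 6 footprint libraries. Of 34026 transcripts found in both deposited tables, 13967 met the bounds on length and RNA, and 180 of these (1.29%) also had 10 footprints or fewer. The RNA level, the footprint sum and the coding length therefore chose the transcripts, and those measures are described below without a test.

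The plants were Sorghum bicolor of the inbred cultivar BTx623. Seedlings germinated for 5 days and were then fed for 8 days, and whole shoots were harvested 13 days after sowing. Control shoots received nutrient solution with 500 µM sulfate, and sulfur-deficient shoots received 10 µM by the sample titles and growth protocol, although the series' design text gives 0 µM. Each group had 3 shoots, and the powder of each shoot supplied 1 RNA-seq library and 1 footprint library, which makes 12 libraries from 6 shoots.

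A translating ribosome shields a short stretch of mRNA from nuclease, and sequencing these stretches shows which coding sequences carry ribosomes. The count of footprints on a transcript depends both on how much of the mRNA is present and on how densely ribosomes load it, so the footprint count is read against the RNA count of the same transcript. Sulfate is the form of sulfur that plant roots take up, and a low supply is known to change the mRNA levels of genes for sulfate uptake and assimilation.

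Library totals ran from 13995665 to 18475153 counts for RNA and from 6328659 to 11066815 for footprints. The files carry transcript IDs without gene names, and 0 of them matched the reference gene table, so that no product, pathway or protein sequence could be given to any transcript below and the shoot label could not be checked against leaf genes. Chromosome numbers are those written in the IDs. The deposited sources used here do not say how reads that match several transcripts were counted or whether RNA reads were assigned by strand, so transcripts with near-identical copies and overlapping or antisense genes are uncertain. Whether such reads contribute to the low footprint counts was not tested.

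The 180 transcripts held 234227 RNA counts and 557 footprints over all libraries, or 0.238 footprints per 100 RNA counts. The 13787 other transcripts over the length and RNA bounds together had 55.3 footprints per 100 RNA counts, with a median of 43.3 per transcript. RNA was counted per transcript and footprints only over the coding sequence. The ratio can therefore depend on how much of a transcript is coding, which was not known here. At that median ratio the RNA counts of the 180 transcripts would correspond to 201 to 7146 footprints each, with a median of 385, against the observed 0 to 10. The bounds on RNA level and footprints fix such a gap in advance, so it describes the selection and was not tested.

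**Figure D1:**
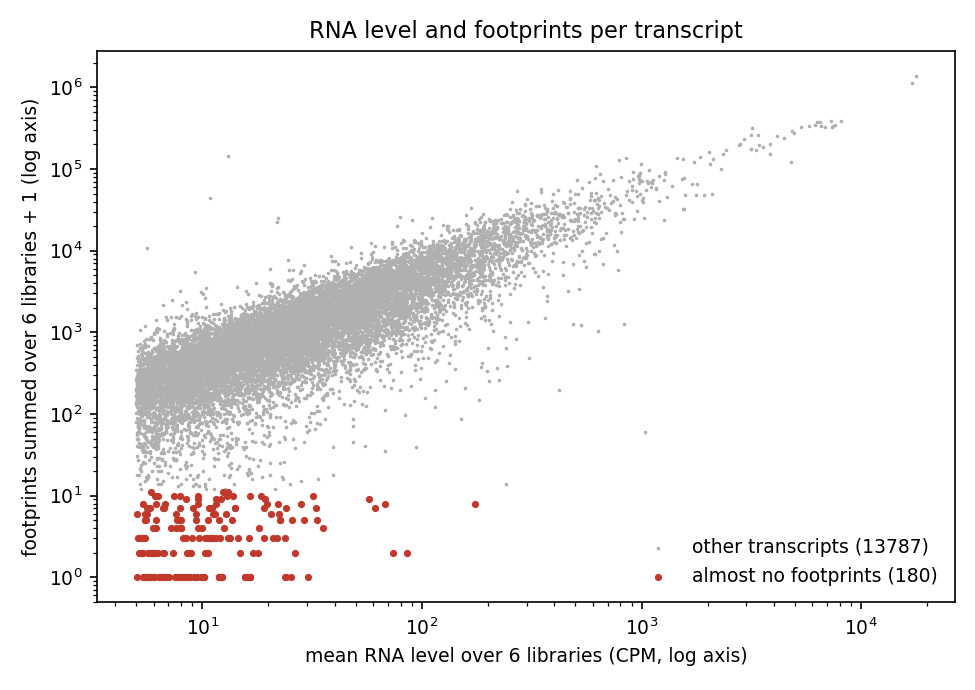
Mean RNA level over the 6 RNA libraries (CPM, log axis) against the footprints summed over the 6 footprint libraries plus 1 (log axis), 1 point per transcript over the length and RNA bounds. The 180 selected transcripts (red) lie along the bottom at 0 to 10 footprints, below the diagonal band of the 13787 others (grey), with a sparse scatter of points between.

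No footprint at all was recorded for 46 of the 180 (25.6%), 25 had 1 footprint and 27 had 2. A count of 0 over the 51761979 footprints of the 6 libraries allows up to 3 footprints, which is a level of 0.058 CPM and covers counting error only. Among these 46 the mean RNA level ran from 5.02 to 30.1 CPM. The highest was Sobic.003G220100.2 on chromosome 3, with a coding sequence of 378 bases and 2813 RNA counts. Its RNA level was 32, 31.4 and 30 CPM in control shoots 1, 2 and 3 and 29.2, 28.4 and 29.9 CPM in sulfur-deficient shoots 1, 2 and 3. Those values are nearly the same in every shoot, and at the median ratio of the other transcripts they would correspond to 1219 footprints. Sobic.006G081400.1, with 357 coding bases, and Sobic.006G194150.1, with 576, had mean RNA levels of 25.3 and 24.1 CPM and likewise 0 footprints. These last 2 were chosen for their zero counts after the values were seen.

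Few transcripts had footprints in most libraries. A footprint was present in only 1 library for 33 of them, in 2 libraries for 34, in 3 for 30, in 4 for 24, in 5 for 11 and in all 6 for 2. No transcript exceeded 6 footprints in any library. Footprints occurred in control shoots only for 36 transcripts, in sulfur-deficient shoots only for 16, and in both for 82. The control libraries were deeper, with 28550015 footprints in all against 23211964.

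The summed footprint level of the 180 transcripts was 9.98 CPM (88 footprints, exact 95% binomial interval 8.01 to 12.3) in control shoot 1, 13.6 CPM (150 footprints, 11.5 to 15.9) in control shoot 2 and 10.6 CPM (92 footprints, 8.56 to 13) in control shoot 3. It was 6 CPM (38 footprints, 4.25 to 8.24) in sulfur-deficient shoot 1, 10.7 CPM (96 footprints, 8.68 to 13.1) in shoot 2 and 11.7 CPM (93 footprints, 9.47 to 14.4) in shoot 3. The groups overlapped, with control shoot 2 highest and sulfur-deficient shoot 1, the shallowest footprint library, lowest. The summed RNA level of the same transcripts ran from 2431 to 2582 CPM in control and from 2369 to 2669 CPM in sulfur-deficient shoots. The intervals cover counting error only, and no test was made on these sums because the footprint totals chose the transcripts.

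**Figure D2:**
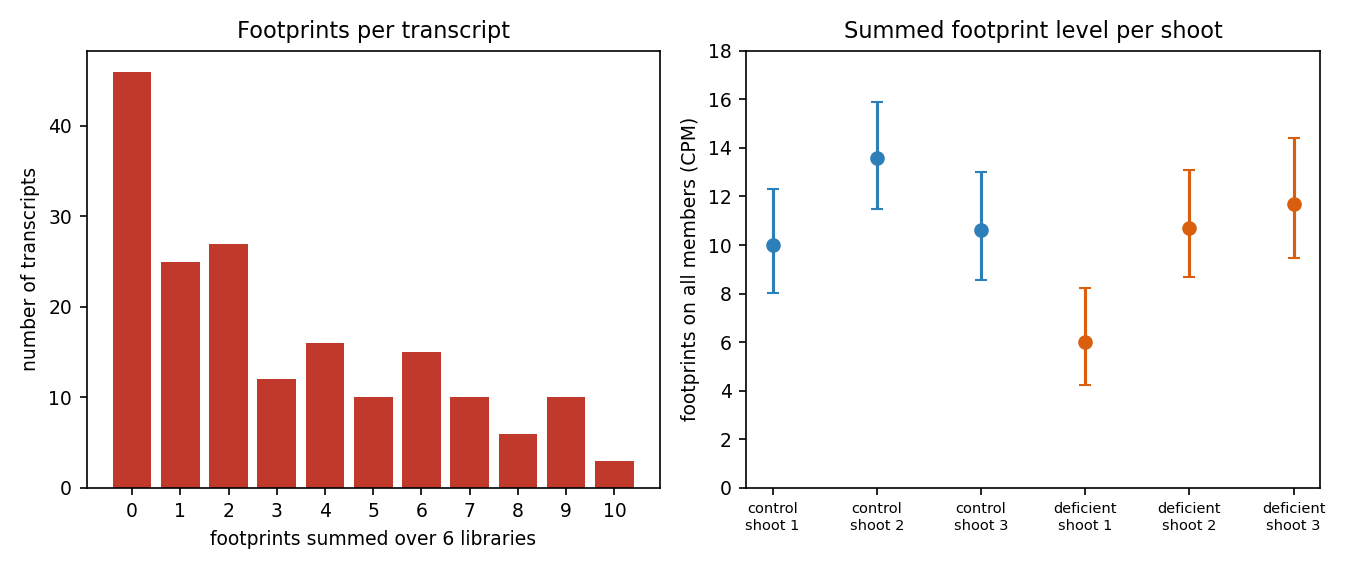
Left, number of selected transcripts (vertical axis) by footprints summed over the 6 libraries (horizontal axis); right, summed footprint level of the 180 transcripts in each shoot (CPM) with exact 95% binomial intervals, control in blue and sulfur-deficient in orange. The tallest bar is the 46 transcripts with 0 footprints, and the levels run from 6 CPM in sulfur-deficient shoot 1 to 13.6 CPM in control shoot 2, the remaining shoots lying between.

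Just inside the RNA bound stood Sobic.007G147400.1 (5.02 CPM, 0 footprints), Sobic.002G163600.1 (5.02 CPM, 5 footprints), Sobic.004G213400.1 (5.09 CPM, 2 footprints) and Sobic.004G161301.1 (5.15 CPM, 1 footprint). Just outside the footprint bound were 31 transcripts with 11 to 15 footprints. The most abundant of these was Sobic.007G028400.1 on chromosome 7, with 393 coding bases and a mean RNA level of 242 CPM, above every selected transcript, yet only 13 footprints. It was followed by Sobic.004G216300.1 (33.7 CPM, 15 footprints), Sobic.007G096600.2 (28.1 CPM, 14 footprints) and Sobic.010G205600.1 (25.1 CPM, 13 footprints). The bound of 10 is a fixed count, and 69 of the 13787 transcripts outside the set (0.5%) had no more footprints per RNA count than the selected transcript with the most, at 1.82 per 100 RNA counts.

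Short coding sequences were common in the set. The median coding length was 441 bases, with quartiles of 327 and 1000, against 1254 bases with quartiles of 813 and 1830 among the other transcripts over the bounds. Of the 180, 95 (52.8%) had 450 coding bases or fewer and 21 (11.7%) had more than 1500, against 6.88% and 37.5% of the others. The share of transcripts that fell in the set was 16% (35 of 219) at 241 to 300 bases, 9.21% (28 of 304) at 301 to 360 and 6.15% (32 of 520) at 361 to 450. It was 1.94% at 451 to 600 bases and between 0.399% and 0.678% in each longer class. Length is one of the bounds, and without it a further 64 transcripts of 240 bases or fewer would have entered.

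The IDs carried a second feature that none of the 3 bounds used. Most locus numbers in the tables are multiples of 100, and the rest are numbers in between, such as that of Sobic.009G064766.1. Of the 180 transcripts, 51 (28.3%) had such an in-between number, against 366 (2.65%) of the 13787 others. Seen the other way, 12.2% of the 417 transcripts with an in-between number were in the set and 0.952% of the 13550 with a multiple of 100. The 2 features overlapped without being the same. Among coding sequences of 450 bases or fewer the shares were 33% (35 of 106) for in-between numbers and 6.4% (60 of 937) for multiples of 100. From 451 to 900 bases they were 8.62% and 0.781%, and above 900 bases 3.08% and 0.472%. In each of the 3 length classes the in-between numbers thus held the larger share. These shares were not split by RNA level, with which the share in the set also fell. Coding lengths can also differ within a class. A transcript suffix above 1 was found in 16.7% of the set and 13.8% of the others.

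**Figure D3:**
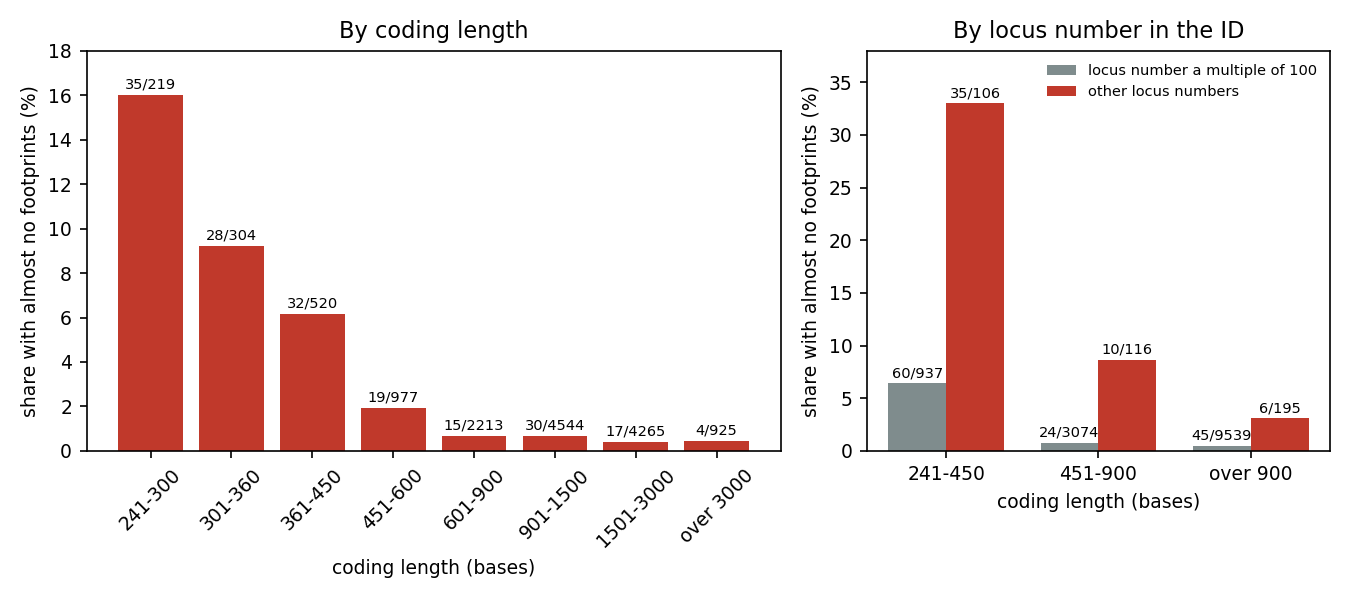
Share of transcripts over the length and RNA bounds that had almost no footprints (%, vertical axes), by coding length in bases (left) and by coding length and locus number (right; grey, multiples of 100; red, other numbers). The numbers on the bars give selected transcripts over all transcripts in the class. The share falls from 16% in the shortest class to below 1% above 600 bases. On the right it is higher for in-between locus numbers in each length class, without a split by RNA level.

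The set was spread over all 10 chromosomes. It took 0.374% of the transcripts over the bounds on chromosome 1 (10 of 2672), 0.951% on chromosome 3 and 1.06% on chromosome 9. The shares on the other chromosomes lay between 1.38% on chromosome 2 and 2.1% on chromosome 5 (13 of 620), so the share was lowest on chromosome 1. Along the order of the IDs within a chromosome, 43.3% of the set and 37.7% of the others lay in the middle 40%. In the outer 40% lay 42.2% of the set and 41.9% of the others. Neighbours in this order were both selected in 2 pairs, Sobic.002G144933.1 with Sobic.002G144966.1 and Sobic.006G045901.1 with Sobic.006G046000.1. How many pairs random placement would give was not computed. A neighbour with an RNA level of at least 5 CPM stood beside 63.3% of the set and 72.5% of the others.

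In CPM, the set was of low abundance: the median RNA level was 9.47 CPM against 25.9 CPM for the others, and 97 of the 180 lay below 10 CPM. Per 1000 coding bases the medians were 20.2 and 20.8 CPM, close to each other, although a bound in CPM admits short transcripts only at a high level per base. The share of transcripts in the set fell with the RNA level, from 3.58% (97 of 2712) at up to 10 CPM to 1.8% at 10 to 20 CPM, 0.641% at 20 to 40 CPM, 0.159% at 40 to 80 CPM and 0.0851% (2 of 2349) above. A fixed bound of 10 footprints allows fewer footprints per RNA count at higher RNA levels. The low abundance of the set and this fall therefore follow at least in part from the bound. At 5 to 10 CPM the RNA of the set varied about as much between control shoots as that of other transcripts, with median coefficients of variation of 11.3% and 10.5%. Over all RNA levels the medians were 9.43% in the set and 7.16% in the others.

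The most abundant transcript of the set was Sobic.003G151100.1 on chromosome 3, with 288 coding bases. Its RNA level was 126, 147 and 276 CPM in control shoots 1, 2 and 3 and 336, 87.1 and 78 CPM in sulfur-deficient shoots 1, 2 and 3. Control shoot 3 and sulfur-deficient shoot 1 were the high ones, so the groups overlapped and the spread within each treatment exceeded the difference between them (log2 fold change -0.11, SE 0.752, edgeR adjusted p = 0.967). Its footprints numbered 1, 4 and 2 in the control shoots and 0 in each sulfur-deficient shoot. Shoot 1 of the deficient group thus had 5315 RNA counts for this transcript and no footprint. The transcript accounted for 16490 RNA counts in all, against 7 footprints.

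The next 2 by RNA level had a single footprint each. Sobic.005G188600.1, of 267 coding bases on chromosome 5, had RNA levels of 77.2, 77 and 88.5 CPM in control shoots 1, 2 and 3 and 96.7, 92.5 and 79.5 CPM in sulfur-deficient shoots 1, 2 and 3, and its footprint came from sulfur-deficient shoot 2. Sobic.009G064766.1, of 339 coding bases on chromosome 9, had RNA levels of 75.5, 79.4 and 79 CPM in control and 78, 67.8 and 63.9 CPM in sulfur-deficient shoots, and its footprint came from control shoot 2. Groups overlapped in both cases. At the median ratio of the other transcripts their RNA would correspond to 3482 and 3001 footprints.

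Longer coding sequences were also found near the top of the list. Sobic.010G264100.1, of 1317 coding bases on chromosome 10, had RNA levels of 70.3, 71.8 and 79 CPM in control and 52.3, 65.7 and 69.3 CPM in sulfur-deficient shoots, with 7 footprints in all. Its sulfur-deficient shoots lay below its control shoots without overlap, by a log2 fold change of -0.21 that did not pass the test (edgeR adjusted p = 0.474). Sobic.009G078200.1, of 2112 coding bases on chromosome 9, had RNA levels of 56.1, 62.1 and 61.2 CPM in control and 58.4, 54.3 and 53.4 CPM in sulfur-deficient shoots. It had 8 footprints, 5 of them in control shoot 2. Between them by level, Sobic.004G118900.2 on chromosome 4, of 360 coding bases, had a mean RNA level of 61.3 CPM and 6 footprints.

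The remaining 6 of the 12 most abundant lay between 29.1 and 35.4 CPM and had 0 to 9 footprints. In descending order they were Sobic.010G050750.1, Sobic.002G191800.1, Sobic.003G225700.1, Sobic.001G267233.1, Sobic.003G220100.2 and Sobic.007G113800.4, with coding lengths of 420, 456, 687, 447, 378 and 273 bases. Apart from Sobic.003G151100.1, the 12 were steady between shoots, with coefficients of variation over the 6 RNA libraries of 4.45% to 13.1%.

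**Figure D4:**
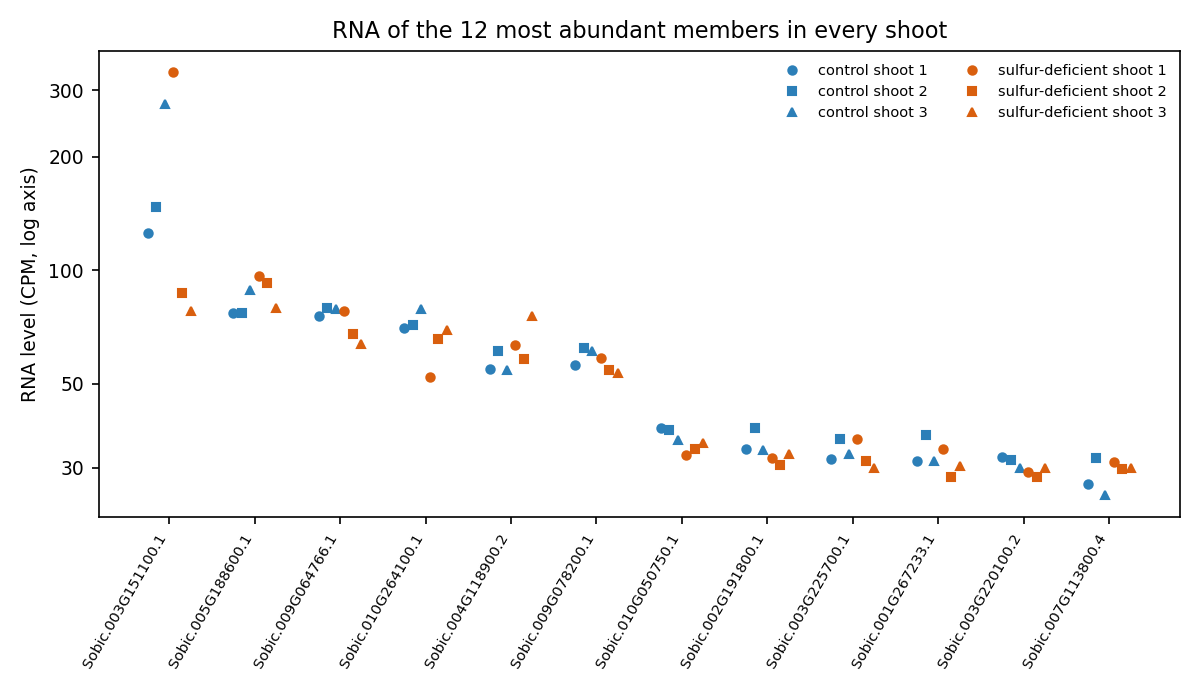
RNA level (CPM, log axis) of the 12 most abundant selected transcripts in each shoot, control in blue and sulfur-deficient in orange, with the marker shape giving the shoot number. Sobic.003G151100.1 spreads from 78 to 336 CPM with control shoot 3 and sulfur-deficient shoot 1 on top, whereas the points of the other 11 lie close together.

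The 4 longest coding sequences of the set belonged to Sobic.010G273000.3 (3570 bases), Sobic.007G188800.2 (3471 bases), Sobic.001G021700.1 (3303 bases) and Sobic.003G072000.3 (3096 bases). Their mean RNA levels were 9.04, 9.92, 7.37 and 9.36 CPM, and they had 6, 3, 1 and 4 footprints. At the median ratio of the other transcripts, 297 to 401 footprints would correspond to their RNA. The set thus also held some of the longer coding sequences of the tables, at low RNA levels.

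The bounds do not name the treatment contrast in RNA, but the bound on the mean over both treatments can admit a transcript through 1 of them. This held for 9 of the 180, of which 2 had a control mean and 7 a sulfur-deficient mean under 5 CPM, and their contrasts are not independent of the selection. The edgeR test, fitted over 20045 transcripts, included all 180, and 0 of them passed an adjusted p of 0.05, where 0.634% of all tested transcripts did. At an unadjusted p under 0.05 there were 13 (7.22%), 6 higher and 7 lower under deficiency, against 12.2% of all tested. DESeq2 called 1 of the 180 (0.556%), against 1.29% of all tested. The median log2 fold change was -0.003 in the set and -0.010 over all tested transcripts, with 88 positive and 92 negative values, and the median SE was 0.125 in the set and 0.119 overall. In CPM from library totals, the 3 control and 3 sulfur-deficient shoots did not overlap for 26 of the 180 (14.4%), 6 higher and 20 lower under deficiency, against 17.5% of all tested transcripts. With TMM scaling, tried after seeing the data, there were 25 (13.9%), 12 higher and 13 lower, against 17.6% of all tested. The higher share of these went from 23.1% to 48% in the set and from 42.5% to 53.5% over all tested transcripts, so the direction depended on the scaling in both.

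The largest fold change in the set was that of Sobic.006G227500.1 on chromosome 6, with 321 coding bases, named after the values were seen. It met the bound on mean RNA through the sulfur-deficient shoots alone, since no control shoot reached 5 CPM, so a difference between treatments was a condition of its selection and its values are given as a description. Its RNA counts were 21, 18 and 24 in control shoots 1, 2 and 3, or 1.49, 1.21 and 1.47 CPM. In sulfur-deficient shoots 1, 2 and 3 they were 325, 1005 and 769, or 20.5, 54.4 and 54.9 CPM. The groups were far apart, and sulfur-deficient shoot 1 was the lowest of its group. The mean level was 1.39 ± 0.159 CPM in control and 43.3 ± 19.7 CPM in sulfur-deficient shoots (SD, n = 3 each). The log2 fold change in edgeR was 4.98 with an SE of 0.603, which missed the edgeR threshold (adjusted p = 0.0727). It was the 1 transcript that DESeq2 called, and edgeR called it without sulfur-deficient shoot 1 (log2 fold change 5.32, adjusted p = 5.3e-10). Because its selection rests on the same contrast, these calls are no separate support for a difference.

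Its footprints numbered 0 in all 3 control shoots and 0, 3 and 2 in sulfur-deficient shoots 1, 2 and 3. The bound of 10 footprints fixed this low number, and no comparison with other risen transcripts is drawn from it.

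**Figure D5:**
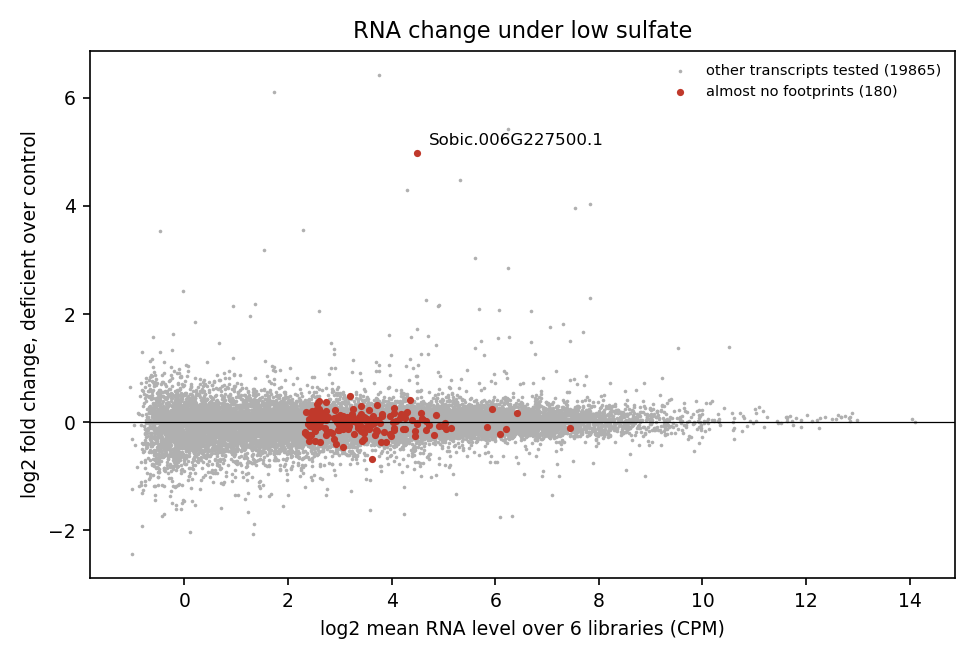
Log2 fold change of RNA, sulfur-deficient over control (vertical axis), against the log2 mean RNA level in CPM (horizontal axis) for the 20045 transcripts tested, the 180 selected ones in red. The red points lie around 0 like the grey ones, except Sobic.006G227500.1 at 4.98.

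Other differences in the set were small or rested on single shoots. Besides Sobic.006G227500.1, no transcript of the set had a log2 fold change above 1 in size, and 2 in all exceeded 0.5. The second was Sobic.004G052401.1 on chromosome 4, with 249 coding bases and 0 footprints, named after its values were seen. Its RNA level was 15.7, 16.6 and 13.7 CPM in control shoots 1, 2 and 3 and 17.5, 6.6 and 4 CPM in sulfur-deficient shoots 1, 2 and 3. Sulfur-deficient shoots 2 and 3 lay below the control shoots and shoot 1 above them. The log2 fold change was -0.68 (SE 0.547, edgeR adjusted p = 0.679) with all shoots and -1.47 (SE 0.178, edgeR adjusted p = 0.00136) without sulfur-deficient shoot 1. The edgeR adjusted p was 0.66 to 0.914 without any 1 of the other 5 shoots. Sobic.004G356800.1, also on chromosome 4, without footprints and named after its values were seen, had RNA levels of 7.18, 7.7 and 8.25 CPM in control and 10.4, 10.6 and 10.9 CPM in sulfur-deficient shoots. These groups did not overlap, and the log2 fold change of 0.48 (SE 0.108) did not pass the test (edgeR adjusted p = 0.102); without control shoot 3 it was 0.55 (edgeR adjusted p = 0.0485). Leaving out any 1 of the other 5 shoots gave edgeR adjusted p of 0.0639 to 0.397.

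Between the highest and the lowest of the 6 RNA libraries, 142 of the 180 transcripts differed by at most 1.5-fold and 10 by more than 2-fold. The RNA signal was therefore repeated from shoot to shoot for most of the set, with no such count for the others. Sobic.006G227500.1 had the largest ratio, 45.6, followed by Sobic.004G052401.1 with 4.37 and Sobic.003G151100.1 with 4.3.

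In footprints the main test did not compare the treatments for the set. The bound of 10 footprints keeps the counts too low for the test, and none of the 180 passed the filter on low counts, so that 0 were among the 16514 transcripts tested, of which 0.224% were called. Translational efficiency, the footprint count relative to the RNA count, was for the same reason not compared between treatments.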

How the data were processed

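Raw counts without normalization were deposited by the authors in 2 tables: reads per transcript for RNA-seq, and footprint counts given as P sites summed over the coding sequence, beside a coding length. Footprints of 26 to 34 nt came from a gel slice, per the labels' protocols. The submitters' processing notes list Bowtie2 and STAR. Roles, build and annotation were not given in the sources used here. The 184 transcripts of the RNA table alone (0.0328% of RNA counts) were not used.

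CPM is the count over the library total. Treatments were compared within each assay with edgeR 4.0.16 in R 4.3.3 (TMM scaling, filterByExpr with a minimum count of 10 and total of 15, robust quasi-likelihood test, Benjamini-Hochberg adjustment over all transcripts tested), without a replicate block, and with DESeq2 1.42.0 as an alternative. The fits were tested on simulated data. Other alternatives were bounds, scalings, the filter and left-out shoots.

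The selected transcripts and the lists were chosen with earlier results of these data known. Transcripts were named as the 12 with the highest RNA level, those called in RNA, the 4 longest, and those next to the bounds. Names chosen after seeing values are marked. Lists by product name, shoot and other cell type markers included, were void because 0 IDs matched the reference table (assembly Sorghum_bicolor_NCBIv3). The labels call the shoots biological replicates.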

Additional observations from a re-analysis of the deposited data

Results flagged for a closer look

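Transcripts that appear in the RNA table but have no row in the footprint table could not be assigned to the set. Of these, 9 had a mean RNA level of 5 CPM or more. The highest, Sobic.K041900.1, stood at 144, 149 and 126 CPM in control shoots 1, 2 and 3 and at 129, 142 and 133 CPM in sulfur-deficient shoots 1, 2 and 3. Their coding lengths and footprints were not analysed here.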

How the results depend on the processing

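The size of the set follows its bounds by construction. It was 46 with a footprint bound of 0, 83 with an RNA bound of 10 CPM and 452 with one of 2 CPM, and 136 to 244 with the other bounds and scalings. Leaving out 1 shoot from both assays gave 188 to 200 transcripts, which included 177 to 180 of the 180. The RNA test called 0 of the set. DESeq2 called 1 and the replicate block 1, Sobic.006G227500.1 in both, and leaving out 1 shoot gave 0 to 2. The log2 fold change of Sobic.006G227500.1 was 4.77 to 5.32 in these left-out fits, and the edgeR adjusted p 5.3e-10 to 0.429, under 0.05 only without deficient shoot 1; its selection rests on its deficient shoots. The replicate numbers did not pair the shoots across treatments, with correlations of deviations of -0.129, 0.139 and -0.0487 in RNA and -0.022, -0.025 and 0.105 in footprints. In the fit with the replicate block the log2 fold change of Sobic.006G227500.1 was 4.95 (edgeR adjusted p = 0.00535). The direction of Sobic.003G151100.1, not called in any fit, turned to 0.32 without control shoot 3 and to 0.20 and 0.22 without deficient shoots 2 and 3, with a range of -1.12 to 0.32. That of Sobic.004G052401.1 ran from -1.47 to -0.34 and that of Sobic.004G356800.1 from 0.44 to 0.55. With the replicate block the edgeR adjusted p of Sobic.004G052401.1 was 0.535 and that of Sobic.004G356800.1 0.186. The footprint test has 0 calls in the set under all 11 alternatives. Only the edgeR fit with no filter tested any of the set, and in the other fits the bound of 10 footprints kept them out. That fit tested 134, of which 7 had an unadjusted p under 0.05, and the share over all transcripts is not given here. The footprint sum chose these transcripts, so no conclusion is drawn from those 7. The cause of the RNA shifts was not tested.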
